A study of Homo sapiens with 4 samples.

Results

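The genes described here encode 10 integrin α subunits that bind collagen, laminin, fibronectin and related ligands, namely ITGA2, ITGA3, ITGA4, ITGA5, ITGA6, ITGA7, ITGA8, ITGA9, ITGA10 and ITGA11. They were chosen by name, as the ligand-binding relatives of the αv subunit at which the compound of the study is directed, and make up 10 of the 17687 named genes on the array. Each was measured by 1 probe set. Whole-transcript expression arrays were hybridised with RNA of SK-N-AS, an established human neuroblastoma line of the sympathetic lineage. The treated group received BG-P400-TAT at 30 µM and the untreated group phosphate-buffered saline, both for 48 h, with 2 arrays in each group that the design text calls biological replicates. By its title, the study set out to hit the norepinephrine transporter and integrin αvβ3 with 1 compound, and its design text asks which genes respond in these cells. All 4 arrays are of a single cell line, and the sources used here do not state how the cultures of a group were kept apart, so the spread between arrays may be partly technical.

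Integrins are receptors of 1 α and 1 β subunit that span the plasma membrane, hold cells to the extracellular matrix and signal through talin, kindlin and focal adhesion kinase. The α subunit largely sets which ligand is bound. All 10 subunits pair with β1, the product of ITGB1, while α6 also pairs with β4 and α4 with β7. Neuroblastoma cells use such receptors to spread on matrix and to migrate, and neural crest cells, from which the sympathetic lineage derives, use them on their way through the embryo.

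The values are log2 expression after robust multi-array averaging (RMA). A gene was called above the limit where its mean over the 4 arrays exceeded 6.96, the 95th percentile of the negative-control probe sets. Each single array was also set against its own 95th percentile, which was 7.19 and 7.25 on treated replicates 1 and 2 and 7.31 and 7.64 on untreated replicates 1 and 2. Untreated replicate 2 stood apart: its median absolute log2 difference to the other arrays was 0.237 to 0.244, against 0.193 to 0.208 for the pairs without it. The lineage of the cells was checked on fixed markers. Of 7 measured markers of sympathetic neuroblasts, 5 were above the limit, and the catecholamine enzyme genes TH and DBH were not. Of 8 markers of the mesenchymal neuroblastoma state, 7 were above it. None of 4 endothelial and 2 Schwann cell markers was above it, and of 4 epithelial markers only KRT8, a keratin gene, was. Of 4 measured leukocyte markers only PTPRC was above it, as described further below.

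Of the 10 genes, 6 were above the limit and 4 were not, while 49.3% of all named genes were above it. The 6 were ITGA2, ITGA3, ITGA5, ITGA6, ITGA8 and ITGA11, and each of them also exceeded the own limit of all 4 arrays. The 4 genes not above the limit, ITGA4, ITGA7, ITGA9 and ITGA10, lay under the own limit of every array. Nearest to the limit were ITGA6 on the upper side, with a mean of 9.43, and ITGA4 on the lower side, with a mean of 6.08. Levels of different probe sets are not comparable with each other, so the genes are not ranked by level.

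**Figure D1:**
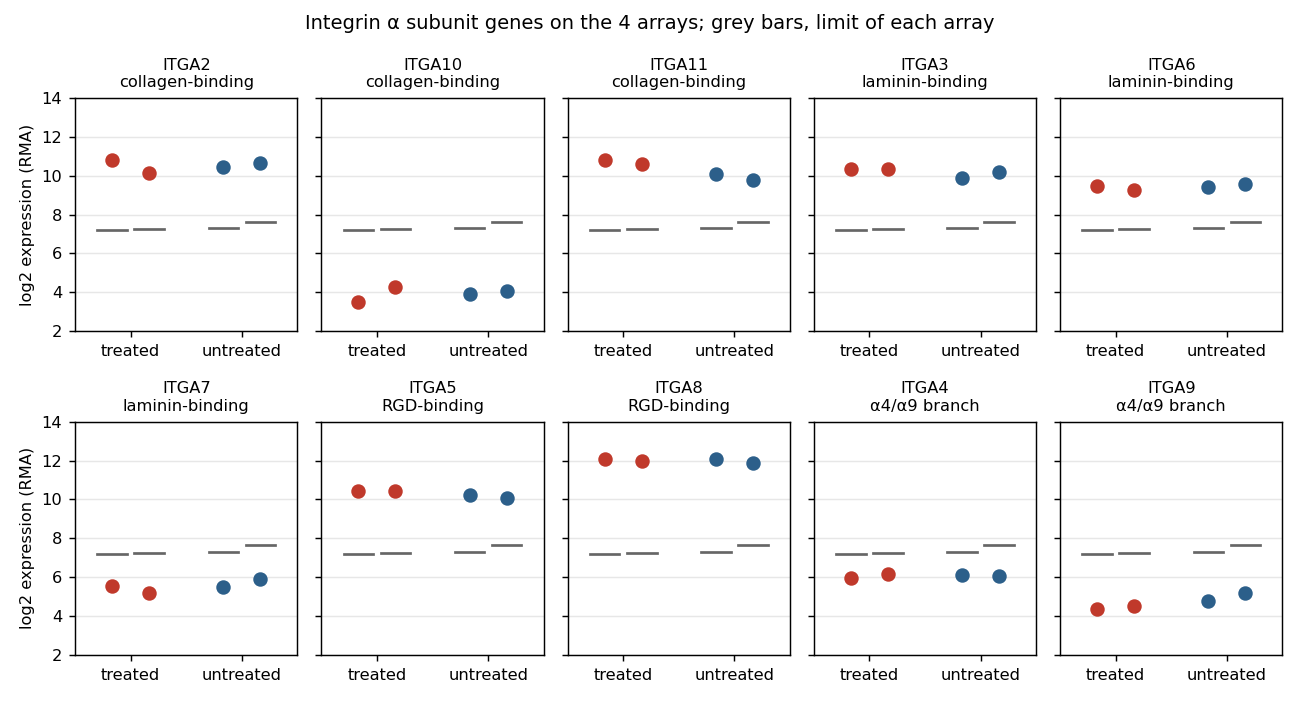
Log2 expression (RMA, vertical axis) of each integrin α subunit gene on the 2 treated (red, left) and 2 untreated arrays (blue, right), with replicate 1 left of replicate 2. Grey bars mark the 95th percentile of the negative controls on each array, and ITGA10, ITGA7, ITGA4 and ITGA9 lie under it on all 4 arrays.

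No gene of the 10 passed the test between treated and untreated cells. In limma's moderated test with Benjamini-Hochberg adjustment, the adjusted p-values of the 10 ran between 0.948 and 0.998. Over all 21448 probe sets 0 passed, a share of 0%, with 1089 at an unadjusted p under 0.05. In simulated arrays of the same number and spread, the test recovered 2.8% of 2-fold and 84.4% of 4-fold changes. At that unadjusted level stood ITGA11, which was above the limit, and ITGA9, which was not; among named genes above the limit 2.4% reached it. The arrays of the 2 groups did not overlap for 3 of the 6 genes above the limit, ITGA3, ITGA5 and ITGA11, and in all 3 the treated arrays were higher. Among all named genes above the limit the groups did not overlap for 32.5%, made up of 21.2% with the treated arrays higher and 11.4% with them lower. Of the 4 genes not above the limit the groups did not overlap for ITGA9 alone, against 33.7% of all named genes below it.

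The collagen-binding subunits are shown first with the stretch of DNA before their transcription start, since the arrays showed a different picture for each: ITGA11 had the largest difference of the 10, ITGA2 was above the limit with overlapping groups, and ITGA10 was far below it. ITGA5, the classical fibronectin receptor gene, is added as another gene above the limit whose treated arrays were both higher. The 250 bases before each start are from RefSeq, build GRCh38.p14, written 5′ to 3′ on the gene's strand, with CpG dinucleotides in capitals. They lie at chr15:68432164-68432413 (minus strand) for ITGA11, chr5:52989102-52989351 (plus strand) for ITGA2, chr1:145910051-145910300 (minus strand) for ITGA10 and chr12:54419267-54419516 (minus strand) for ITGA5.
ITGA11: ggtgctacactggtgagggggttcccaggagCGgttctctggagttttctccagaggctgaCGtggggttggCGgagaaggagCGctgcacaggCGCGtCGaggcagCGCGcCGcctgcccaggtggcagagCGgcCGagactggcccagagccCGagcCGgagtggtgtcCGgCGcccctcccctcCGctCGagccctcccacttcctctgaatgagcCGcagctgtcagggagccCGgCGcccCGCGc
ITGA2: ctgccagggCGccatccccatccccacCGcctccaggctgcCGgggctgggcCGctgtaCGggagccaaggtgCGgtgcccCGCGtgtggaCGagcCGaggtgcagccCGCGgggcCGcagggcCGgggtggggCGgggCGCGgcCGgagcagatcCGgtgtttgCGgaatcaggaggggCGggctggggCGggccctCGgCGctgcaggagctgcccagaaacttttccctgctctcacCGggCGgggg
ITGA10: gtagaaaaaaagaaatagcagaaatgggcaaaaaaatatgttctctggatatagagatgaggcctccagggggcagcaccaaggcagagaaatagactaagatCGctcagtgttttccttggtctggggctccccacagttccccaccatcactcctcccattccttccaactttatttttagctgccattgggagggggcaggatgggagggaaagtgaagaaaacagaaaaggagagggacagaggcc
ITGA5: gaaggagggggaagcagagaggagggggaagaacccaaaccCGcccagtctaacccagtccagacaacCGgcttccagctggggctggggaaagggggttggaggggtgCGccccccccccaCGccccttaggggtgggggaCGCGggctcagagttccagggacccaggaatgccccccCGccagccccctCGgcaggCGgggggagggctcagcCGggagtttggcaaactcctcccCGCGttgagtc

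The capitals show a CpG-rich promoter for ITGA11 and ITGA2, with 23 and 26 CpG dinucleotides, and a nearly CpG-free one for ITGA10, with 1. ITGA5 lay between them with 12. A promoter sequence was matched for 7 of the 10 genes. ITGA8 had 19 CpG dinucleotides and ITGA4 had 25, and ITGA6 had 8 before its upstream start and 30 before its downstream start. Over all named genes with a promoter, taking the first listed start of each, the median was 21 for the 7327 genes above the limit and 10 for the 6923 not above it. ITGA4 thus had a count above the median of the genes above the limit while its own signal was below that limit.

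**Figure D2:**
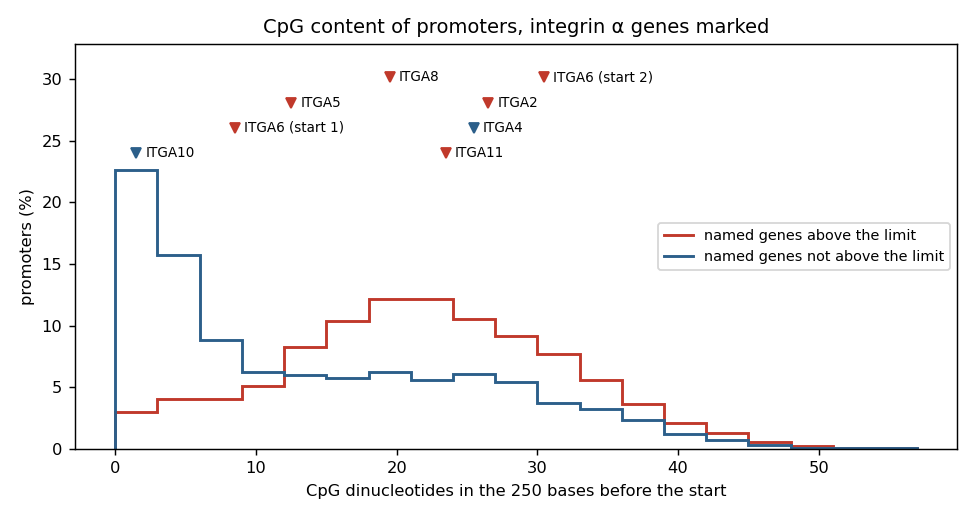
Share of promoters (vertical axis, percent) by the number of CpG dinucleotides in the 250 bases before the start (horizontal axis, bins of 3), for named genes above the limit (red) and not above it (blue). Triangles mark the integrin α genes in the colour of their own class; ITGA10 (1 CpG) sits in the lowest bin and ITGA4 (25 CpG), also not above the limit, among the CpG-rich promoters.

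Short motifs were searched on both strands of the same 250 bases. The GC box GGGCGG, to which SP1 binds, occurred 4 times before ITGA2, 4 times before ITGA8, of which 3 overlapped each other in part, once before ITGA5 and not before ITGA11, ITGA10 or ITGA4. It was present before the downstream start of ITGA6 and not before the upstream one. Of all 35116 promoters 42.6% held it. Of named genes, by their first listed start, 67.7% of those above the limit held it and 45.5% of those not above it. The TEAD motif GGAATG was found before ITGA5 and ITGA10 (11.9% of all promoters). TATAAA was matched before the upstream start of ITGA6 (10.7%) only as its reverse complement, TTTATA on the gene's strand. The shares given for TATAAA count either orientation. The AP-1 motif TGANTCA (6.57%) and the GATA motif AGATAA (9.17%) were not found before any of the 7 genes. Among named genes above the limit the shares were 8.63% for TEAD, 5.3% for TATAAA, 3.28% for AP-1 and 4.5% for GATA. Among those not above it they were 11.5%, 12.9%, 6.96% and 9.48%. These matches describe the letters in the window.

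ITGA11 encodes α11, the collagen receptor of fibroblasts and other mesenchymal cells. Its log2 expression was 10.82 and 10.60 in treated cells, against 10.08 and 9.77 in untreated cells. Both treated arrays lay above both untreated ones, with a gap between the groups larger than the gap within either. The mean was 10.71 ± 0.15 in treated and 9.93 ± 0.22 in untreated cells (SD, n = 2 each). The log2 difference of 0.78 ± 0.21 (SE) corresponds to 1.72-fold, with a 95% confidence interval from 1.23- to 2.41-fold. In size it ranked 15th of the 8722 named genes above the limit. It did not pass the adjustment over all probe sets (limma adjusted p = 0.948), and with an array left out the difference was 0.63 to 0.93. Markers of both neuroblastoma states had positive differences beside it. These were 7 of 7 mesenchymal markers above the limit (median 0.28, 4 without overlap) and 5 of 5 sympathetic neuroblast markers (median 0.17, 3 without overlap). None of them passed. Over all named genes above the limit 58.8% were positive, and 21.2% had higher treated arrays without overlap. Of the markers below the limit, NOTCH2 and TH had lower treated arrays without overlap, and the groups of DBH overlapped. Sums were taken over all measured markers of a list, also those below the limit. The mesenchymal list summed to 15.81 to 15.89 on treated and 15.68 to 15.78 on untreated arrays on the log2 scale. That sum is carried by VIM, whose own difference was 0.11. The sympathetic list summed to 13.18 to 13.21 on treated and 12.76 to 13.18 on untreated arrays. In both lists untreated replicate 2 had the lowest sum. The part of these markers in the ITGA11 difference was not tested.

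ITGA2 encodes α2, the collagen and laminin receptor best known from platelets and epithelia. It stood at 10.79 and 10.15 in treated cells, against 10.45 and 10.67 in untreated cells. Both untreated values fell between the treated ones, so the replicates of the treated group differed by more than the groups did. The log2 difference was -0.09 (interval -0.70 to 0.52), and its sign turned without treated replicate 2 (0.23) or without untreated replicate 2 (0.021). The confidence interval allows values between 0.615- and 1.43-fold. ITGA10 encodes α10, the collagen receptor of cartilage. It read 3.51 and 4.25 on treated arrays, against 3.93 and 4.07 on untreated arrays, all below the negative controls' limit, and no fold is given for it.

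Among the laminin-binding subunits, α3 and α6 serve in epithelial adhesion to basement membranes and α7 is the laminin receptor of muscle. ITGA3 stood at 10.35 and 10.32 in treated cells, against 9.90 and 10.17 in untreated cells. The treated values were close together and above both untreated values, which were further apart. The log2 difference of ITGA3 was 0.30 ± 0.19 (SE), or 1.24-fold with an interval from 0.898 to 1.70, and leaving out an array gave 0.17 to 0.44. ITGA6 read 9.45 and 9.28 in treated cells, against 9.42 and 9.59 in untreated cells. The groups of ITGA6 overlapped, and the log2 difference of -0.14 (interval -0.60 to 0.31) stayed negative with any array left out (-0.23 to -0.06). ITGA7 read 5.54 and 5.18 on treated arrays, against 5.51 and 5.89 on untreated arrays, below the limit throughout and with overlapping groups.

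The α5 and α8 subunits recognise the tripeptide RGD, α5 in fibronectin and α8 in nephronectin among other ligands. ITGA5 had a log2 expression of 10.46 and 10.45 in treated cells, against 10.20 and 10.08 in untreated cells. Both treated values exceeded both untreated values. The log2 difference of ITGA5 was 0.31 ± 0.18 (SE), or 1.24-fold with an interval from 0.920 to 1.68, and it was 0.25 to 0.37 with an array left out. ITGA8, best known from kidney development and smooth muscle, read 12.08 and 11.98 in treated cells, against 12.06 and 11.86 in untreated cells. The groups overlapped. The log2 difference of ITGA8 was 0.07, with an interval from 0.769- to 1.43-fold, the 1 interval among the 6 genes that lay within 1.5-fold in both directions. Its sign turned without untreated replicate 2 (-0.03).

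The α4 and α9 subunits form a branch of their own, bind VCAM1 among other ligands and are known from leukocytes and from migrating cells. ITGA4 read 5.98 and 6.17 on treated arrays, against 6.14 and 6.05 on untreated arrays. These 4 values overlapped and were all under the limit. ITGA9 read 4.35 and 4.51 on treated arrays, against 4.78 and 5.17 on untreated arrays. The treated arrays of ITGA9 were lower without overlap, but values so far under the limit are not read as a change in transcript. PTPRC, the gene of the leukocyte phosphatase CD45, lay above the limit, with 12.71 and 12.57 on treated arrays, against 12.75 and 12.80 on untreated arrays. It was the 1 of 4 measured leukocyte markers to do so, since CD3E, CD14 and ITGB2 were below the limit. The probe sequences were not used here, so whether this probe set reads the PTPRC transcript alone was not tested. The summed level of the 4 markers, 12.60 to 12.73 on treated and 12.78 to 12.84 on untreated arrays on the log2 scale, is carried by PTPRC and does not describe the other 3. Its part in these results was not tested.

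**Figure D3:**
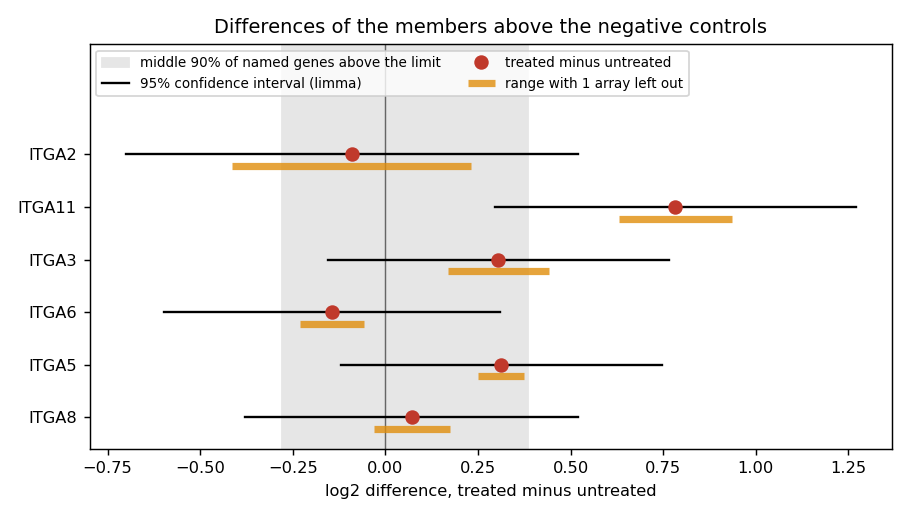
Log2 difference, treated minus untreated (horizontal axis), of the 6 integrin α genes above the limit, with 95% confidence intervals from limma (black), the range when 1 array is left out (orange) and the middle 90% of all named genes above the limit (grey, -0.28 to 0.39). ITGA11 lies to the right of the grey band, and the other 5 points lie inside it.

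Of the 10 differences 4 were positive and 6 negative, with a median of -0.05, which includes the 4 members below the limit, all negative. Over all named genes the median was -0.00068. The 6 genes above the limit had a median log2 difference of 0.19, and for all 8722 named genes above it the median was 0.040, with 58.8% positive. The intervals of 5 of the 6 genes lay within 2-fold in both directions, ITGA11 being the exception. In bulk RNA, a different number of cells of some kind and a different amount of transcript per cell cannot be told apart.

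For each of the 6 genes, the named gene above the limit with the most similar course over the 4 arrays was sought, as the smallest root mean square difference after centring each gene on its mean. It was RASA4 for ITGA11 (0.024 on the log2 scale), ZHX3 for ITGA2 (0.037), EXOSC5 for ITGA3 (0.0090), GJC1 for ITGA6 (0.0060), MRPS7 for ITGA5 (0.011) and LAMB1 for ITGA8 (0.0057). With 4 arrays and 8721 candidates such small distances describe these arrays only.

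The β partners were measured for all 10 subunits. ITGB1 was above the limit at 15.57 and 15.41 in treated cells, against 15.56 and 15.70 in untreated cells. Its groups overlapped, and its log2 difference was -0.14 (interval -0.58 to 0.31). ITGB4, the other partner of α6, read 4.02 and 4.25 on treated arrays, against 4.31 and 4.89 on untreated arrays. ITGB7, the other partner of α4, read 4.23 and 4.80 on treated arrays, against 4.23 and 4.42 on untreated arrays. Both were below the limit, as was ITGA4 itself, so β1 was the 1 partner of these α subunits measured above the limit. Of the 8 β genes ITGB1 and ITGB5 were above the limit, and ITGB5, a partner of αv, had a log2 difference of 0.21 (interval -0.22 to 0.64).

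Other integrin α genes gave 3 above the limit of 7 measured, and all 3 had negative differences. ITGAV, the αv gene, stood at 10.68 and 10.63 in treated cells, against 10.96 and 10.90 in untreated cells, a log2 difference of -0.28 (interval -0.71 to 0.15). ITGAE, the αE subunit of intraepithelial lymphocytes, had -0.32 (interval -0.93 to 0.30). ITGAX, a leukocyte subunit, had -0.43 (interval -0.86 to -0.0085) and exceeded the own limit of 1 array only, untreated replicate 1. ITGAX read 6.93 and 6.92 on treated arrays, both under the limit, against 7.34 and 7.37 on untreated arrays. Its negative difference thus rests in part on values under the limit. The groups of ITGAV and ITGAX did not overlap, and neither passed the test (limma adjusted p = 0.949 and 0.948). Among all named genes above the limit 11.4% had lower treated arrays without overlap, and 58.8% had positive differences.

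**Figure D4:**
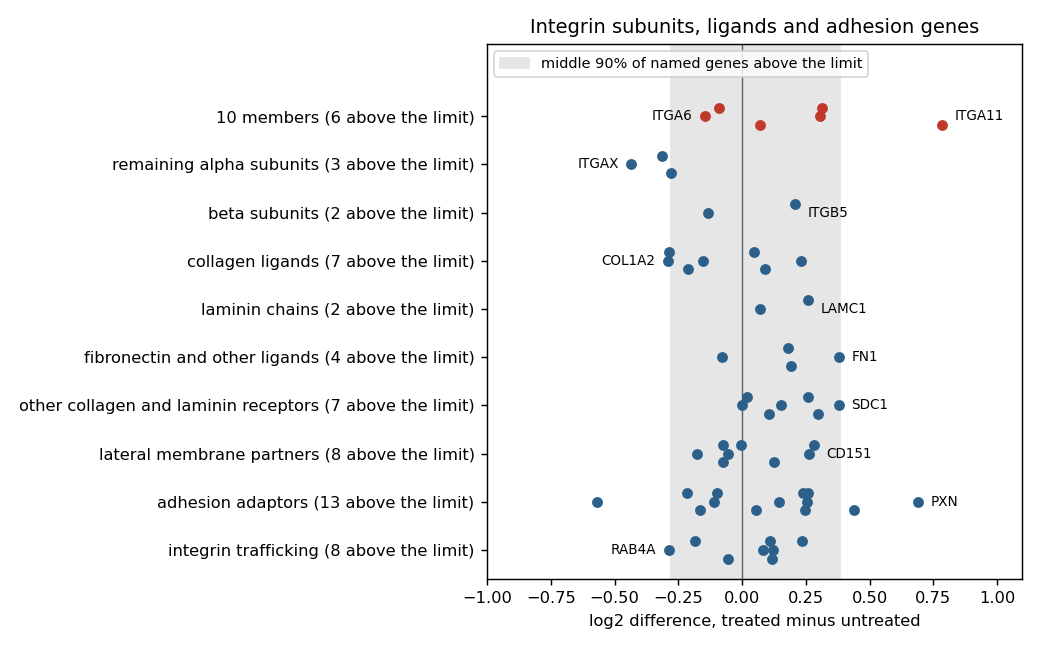
Log2 difference, treated minus untreated (horizontal axis), of each gene above the limit in the integrin α set (red) and in 9 lists of other subunits, ligands and adhesion genes (blue); vertical offsets only separate points. The grey band is the middle 90% of all named genes above the limit, and ITGA11 (0.78) and PXN (0.69) lie furthest to its right.

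Genes of collagens, laminins and fibronectin, the matrix ligands of these receptors, were also above the limit in part. Of 12 measured collagen genes 7 were above it, 3 with positive and 4 with negative differences (median -0.15). COL1A1 and COL1A2, the chains of type I collagen, had log2 differences of -0.28 (interval -0.73 to 0.16) and -0.29 (interval -0.87 to 0.29). COL6A2, a chain of type VI collagen, had 0.23 (interval -0.23 to 0.69). The type VI chains COL6A1 and COL6A3 had -0.15 (interval -0.63 to 0.32) and 0.09 (interval -0.36 to 0.54), both with overlapping groups. COL1A1 lay near the limit, above it by its mean and on 2 of the 4 arrays. Of 7 laminin genes LAMB1 and LAMC1, the β1 and γ1 chains, were above the limit, with 0.07 (interval -0.38 to 0.52) and 0.26 (interval -0.21 to 0.73). The 3 laminin α chain genes measured, LAMA1, LAMA2 and LAMA4, were below it. Of 10 other ligands 4 were above it, 3 with positive and 1 with a negative difference. FN1, fibronectin, had 0.38 (interval -0.29 to 1.05) and EMILIN1, an elastic fibre glycoprotein, had 0.19 (interval -0.24 to 0.63). THBS1, thrombospondin, had 0.18 (interval -0.37 to 0.73). The negative one was MADCAM1, at -0.08 (interval -0.51 to 0.36), which exceeded the own limit of 3 of the 4 arrays. NPNT, which encodes the α8 ligand nephronectin, and VCAM1 were below the limit. None of these genes passed the test.

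Among genes that act with integrins at the membrane and in the cytoplasm, PXN was the nearest to ITGA11 in size. PXN encodes paxillin, a focal adhesion scaffold that binds the α4 and α9 tails directly. It stood at 11.45 and 11.43 in treated cells, against 10.74 and 10.76 in untreated cells, with no overlap. The log2 difference of PXN was 0.69 (interval 0.26 to 1.12), and it did not pass (limma adjusted p = 0.948). Of 13 adhesion adaptors above the limit, 8 had positive and 5 negative differences, with a median of 0.15. ZYX, the focal adhesion protein zyxin, had 0.44 (interval -0.12 to 1.00). TNS3, a tensin, had -0.57 (interval -1.11 to -0.03) and was above the limit by its mean but on 0 arrays by their own limits.

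Of 8 lateral membrane partners above the limit 3 had positive and 5 negative differences. CD151, the tetraspanin that associates with α3β1 and α6β1, read 12.53 and 12.64 in treated cells, against 12.24 and 12.37 in untreated cells, a log2 difference of 0.28 (interval -0.16 to 0.72). SLC3A2, the CD98 heavy chain, had 0.26 (interval -0.26 to 0.79) and the tetraspanin gene CD9 had -0.18 (interval -0.78 to 0.42). Of 8 trafficking genes above the limit 5 were positive and 3 negative. RAB4A, of rapid recycling, had -0.29 (interval -0.77 to 0.20), SNX17, which sorts β1 away from degradation, 0.24 (interval -0.24 to 0.71), and ARF6, of membrane recycling, -0.19 (interval -0.64 to 0.27). Of 7 other collagen and laminin receptors above the limit 6 were positive and 1 negative, with a median of 0.15. Over all named genes above the limit 58.8% were positive. Of the syndecan genes, SDC1, SDC3 and SDC4 had 0.38 (interval -0.13 to 0.89), 0.30 (interval -0.19 to 0.79) and 0.26 (interval -0.19 to 0.71). SDC2, also above the limit, had 0.02 (interval -0.41 to 0.46) with overlapping groups. The lists are described by these counts, and 0 of their measured genes passed.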

How the data were processed

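Trizol-extracted total RNA was biotin-labelled for whole-transcript arrays, per the labels' protocols. The authors deposited log2 expression values per probe set, made with RMA and with Transcriptome Analysis Console 4.0.1.36, per the submitters' processing notes; the log2 scale was read from the values. RMA includes quantile normalization, which would remove a shift common to most genes. The sources used here give no genome build for the probe sets.

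Of 24351 probe sets, 2903 controls were left out, and 21448 were fitted by group alone in limma 3.58.1 (lmFit, eBayes; R 4.3.3). Tests were two-sided, with Benjamini-Hochberg adjustment over all of them at 0.05 (2 residual and 4.90 prior degrees of freedom). Symbols came from the platform annotation, 17709 probe sets having 1 symbol, and the brightest probe set was taken per gene. No probe set was annotated to ITGA1, so that gene was not measured. No fold is given for a gene below the limit. An exact permutation test of 2 arrays against 2 cannot give a two-sided p below 0.333. The number of arrays limits the precision.

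The integrin set and all lists were chosen with earlier results of these data known, so no list was tested as a set. Genes named beside the 10 follow a fixed rule: ITGB1, ITGB4 and ITGB7, up to 3 genes above the limit with the smallest p from each list, and the most similar gene of each member. The other genes mentioned were named after their values were seen. Among them were PTPRC, VIM, KRT8, TH, DBH, CD3E, CD14, ITGB2, NOTCH2, NPNT, VCAM1, MADCAM1, SDC2, COL6A1, COL6A3 and the laminin α chains.

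The fit was tested on simulated data, in 10 simulations of 21448 probe sets with 200 changed. It recovered 2.8% of the 2-fold, 84.4% of the 4-fold and 98.6% of the 8-fold changes, and 4.16% of calls were false. Alternatives were other normalizations, a filter, a floor, trended and robust variances, a block for the replicate number, other limits, and leaving out each array.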

Additional observations from a re-analysis of the deposited data

How the results depend on the processing

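No probe set and none of the 10 integrin genes passed under quantile normalization, median centring, cyclic loess, or trended or robust variances. The filter at the negative controls leaves out ITGA4, ITGA7, ITGA9 and ITGA10, and the floor makes them constant. Under both, no probe set passed. None passed with any array left out either, where 1 group holds a single array that is assumed to vary like the other group. Since few 2-fold changes can pass even with all 4 arrays, these counts of 0 say nothing about stability. At an unadjusted p under 0.05 the count of probe sets, 1089 in the fit to all arrays, was 690 without treated replicate 2, 2444 without untreated replicate 1, 509 with the filter and 524 with the floor; the filter tests fewer probe sets. With the replicate number as a block, 0 probe sets and 0 of the 10 genes passed, and the unadjusted count was 1079. Labels give no shared source for equal numbers, and the deviations of the arrays numbered 1 correlated at -0.00085 over all probe sets, so the numbers were not treated as pairs. The count of 6 genes above the limit was also 6 with the 90th percentile, with the 99th percentile and with each array's own limit on all 4 arrays. At the 99th percentile (9.421) ITGA6 passed only narrowly, with a mean of 9.434.

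The differences of ITGA3, ITGA5, ITGA6 and ITGA11 kept their sign in all alternatives run. Those of ITGA2 and ITGA8 kept it in the alternatives that use all arrays. With an array left out, ITGA2 ran from -0.41 to 0.23, turning without treated replicate 2 (0.23) and untreated replicate 2 (0.021), and ITGA8 from -0.03 to 0.17, turning without untreated replicate 2 (-0.031). The cause was not tested. ITGA11 ran from 0.63 to 0.93 with an array left out and from 0.74 to 0.79 in the others, where its adjusted p was 0.641 to 0.977. Using all probe sets of a gene changes nothing, since each of the 10 has 1. The 4 genes below the limit entered the counts of genes above the limit. They also entered the counts of genes passing, except under the filter, which leaves them out. Under the floor they were constant and could not pass. Their differences were not followed across the alternatives.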
